A study of Mus musculus with 6 samples.

Results

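Glycolysis splits glucose into pyruvate in the cytosol, and lactate dehydrogenase converts pyruvate and lactate into each other. The 10 genes described here cover that route by its brain isozymes: the glucose transporter gene Slc2a3, the hexokinase genes Hk1 and Hk2, the phosphofructokinase genes Pfkm and Pfkp, the aldolase gene Aldoa, the phosphoglycerate kinase gene Pgk1, the pyruvate kinase gene Pkm and the lactate dehydrogenase genes Ldha and Ldhb. They were chosen by name, as 10 of the 18193 genes that at least 1 probe set of the array names alone, and for each the probe set with the highest mean over the arrays stands for the gene. All 10 were among the 13015 genes tested. The 10 genes were measured in 3 auditory nuclei of the brainstem of male C57BL/6J mice, with no treatment named in the labels, on postnatal days 3 (P3) and 14 (P14). These were the cochlear nucleus in its ventral division (VCN), the lateral olive of the superior olivary complex (LSO) and the medial trapezoid body nucleus (MNTB). Each of the 6 combinations is 1 Affymetrix mouse expression array of RNA from tissue pooled over 6 animals at P3 or 3 animals at P14, amplified before it was hybridised.

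As background, the nuclei lie on the pathway that compares sound between the ears, and mice begin to hear between these ages. Neurons of this pathway fire at high rates, and their energy comes largely from oxidation of glucose and lactate. Lactate dehydrogenase is a tetramer of the subunits encoded by Ldha and Ldhb. Tetramers rich in the A subunit are typical of tissues that make lactate, such as fast muscle, and those rich in the B subunit of tissues that oxidise it, such as heart. In brain, glia are known to export lactate and neurons to take it up through monocarboxylate transporters. The comparisons ask how RNA of these genes differed between the ages and between the nuclei.

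Between P3 and P14 Ldha fell and Ldhb rose, both in 3 of 3 nuclei. Pfkm, Aldoa, Pgk1 and Pkm rose as well and Hk1 fell, while Hk2, Pfkp and Slc2a3 did not pass the test with their representative probe sets. Without the intensity trend of the variances, or without either array of MNTB, 2 of the 10 were higher (Pfkm and Ldhb) and 1 lower (Ldha). In all, 5 of the 10 genes were higher at P14 and 2 lower, where 23.4% of the 13015 tested genes were higher, 17.7% lower and 41.1% changed in either direction. The median age change of the 10 was 0.23 log2 units, beside 0.03 over all tested genes, and their median size was 0.35 beside 0.30. A change of 1 log2 unit is a doubling. The test was limma's, with age and nucleus as additive terms and Benjamini-Hochberg adjustment over all tested genes at a threshold of 0.05. Errors of fitted changes are limma's moderated standard errors. They draw a gene's spread over 3 nuclei toward a value set by the spread of tested genes of similar level. No combination of nucleus and age was repeated. P-values thus measure how evenly a change recurred over nuclei, with that moderated spread, and not how it varied between animals.

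Array medians lay between 6.27 and 6.31 log2 units, and all 10 genes lay above the unspiked control probe sets, which ran from 2.84 to 4.42. Of the differences among arrays over the tested genes, 68.6% went with age and 22% with nucleus. The 3' probe set of Gapdh exceeded its 5' probe set by 1.21 to 1.41 log2 units at P3 and by 1.06 to 1.11 at P14. For the actin control the same difference was -0.24 to -0.18 at P3 and -0.30 to -0.26 at P14. Such differences are a sign of RNA or amplification quality, and both were lower at P14, as was the number of animals in a pool. The part of quality or pool size in the age changes below was not tested. An error shared by the 3 arrays of an age cannot be told apart from age. The labelled tissue was checked against marker genes. Slc6a5, the glycine transporter of inhibitory terminals, was highest in MNTB at both ages, at 12.50 and 13.02, and Slc17a6, the vesicular glutamate transporter of excitatory neurons, was highest in VCN, at 11.06 and 11.04. Pvalb and Kcna1, markers of mature auditory neurons, rose by 3.44 and 2.37 log2 units. Slc17a7, another vesicular glutamate transporter gene, reached 8.50 on the VCN array of P14 and 3.93 to 4.83 on the other 5.

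The lactate dehydrogenase genes moved in opposite directions, so their promoter sequences are shown, with that of Pgk1, a gene that rose and whose promoter is a textbook target of the hypoxia-inducible factor. Each window holds 250 bases before and 50 after a RefSeq start site on build GRCm38.p6. The windows lie at chr7:46845554-46845853 on the plus strand for the first start site of Ldha, at chr6:142507908-142508207 on the minus strand for Ldhb and at chrX:106186850-106187149 on the plus strand for Pgk1. Capitals mark the core of the hypoxia response element, ACGTG or GCGTG, read on both strands, so that CACGT and CACGC are marked too.
Ldha: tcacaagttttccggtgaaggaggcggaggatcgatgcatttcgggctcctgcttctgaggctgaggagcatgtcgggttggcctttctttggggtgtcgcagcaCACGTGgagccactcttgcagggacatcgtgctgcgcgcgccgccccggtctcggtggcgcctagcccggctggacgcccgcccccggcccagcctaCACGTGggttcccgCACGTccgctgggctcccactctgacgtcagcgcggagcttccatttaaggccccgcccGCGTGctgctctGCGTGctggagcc
Ldhb: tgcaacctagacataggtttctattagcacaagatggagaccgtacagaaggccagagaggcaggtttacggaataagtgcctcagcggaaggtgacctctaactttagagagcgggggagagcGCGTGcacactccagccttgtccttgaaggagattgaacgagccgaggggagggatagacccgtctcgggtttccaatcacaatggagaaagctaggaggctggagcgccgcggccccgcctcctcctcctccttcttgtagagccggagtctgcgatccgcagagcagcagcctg
Pgk1: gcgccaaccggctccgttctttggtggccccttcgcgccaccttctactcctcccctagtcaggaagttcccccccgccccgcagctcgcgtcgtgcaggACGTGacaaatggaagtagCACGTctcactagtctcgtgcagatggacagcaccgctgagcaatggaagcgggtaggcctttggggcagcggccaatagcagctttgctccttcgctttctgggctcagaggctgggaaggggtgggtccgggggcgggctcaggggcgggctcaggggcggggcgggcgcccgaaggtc

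Overlapping matches were merged and counted as 1. The window at the first Ldha start site held 5 matches, a number that 0.767% of 32851 promoter windows of the same length reached or passed. That share is over windows of any base composition. The motif itself contains CG, and this Ldha window holds 30 CG dinucleotides and is 67.3% G or C. The part of base composition in the count was not tested. The second Ldha start site, whose window is not shown, held 2, as many as 17.3% of windows reached. The 5 matches at the first start site begin at positions 106, 203, 217, 276 and 288 from the 5' end. The last 2 of them lie after the start site. At 106 and 203 the motif lies on both strands within CACGTG, which is also the E-box sequence bound by other factors. The Ldhb window held 1 match, at position 125, and 43.8% of all windows held at least 1. The Pgk1 window held 2, at positions 101 and 120. Pfkp, which did not pass for age with its representative set, and the second start site of Hk1, which fell, had windows with 4 matches, and 2.44% of all windows held at least 4. Of the 10 genes 9 had promoter windows, 17 in all, and 13 of the 17 held a match, beside 43.8% of all windows. Each of the 9 genes had a match in at least 1 window. Some of them have several windows, and the share of all genes with a match was not computed. A match is a run of letters and not a measured binding site.

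Ldha, which encodes the A subunit of lactate dehydrogenase, read 11.32 (VCN), 11.69 (LSO) and 11.48 (MNTB) at P3, and 10.87, 10.94 and 10.62 at P14. Every P14 array lay below every P3 array. The fall was 0.45 log2 units in VCN, 0.75 in LSO and 0.86 in MNTB. The fitted change was -0.69 ± 0.10 (95% interval -0.92 to -0.45, adjusted p = 0.00318), so the level at P3 was 1.61 times that at P14. It was the largest of the changes among the 10 representative probe sets.

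Ldhb, which encodes the B subunit, read 12.76 (VCN), 12.97 (LSO) and 13.08 (MNTB) at P3, and 13.48, 13.26 and 13.42 at P14. Here every P14 array lay above every P3 array. The rise was 0.71 log2 units in VCN, 0.29 in LSO and 0.34 in MNTB, with a fitted change of 0.45 ± 0.09 (adjusted p = 0.0106) or 1.36-fold. All 4 probe sets of Ldhb passed in a fit over 27000 probe sets, with changes of 0.37 to 0.45. In that fit 41.2% of all probe sets passed. Ldha has 1 probe set here.

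**Figure D1:**
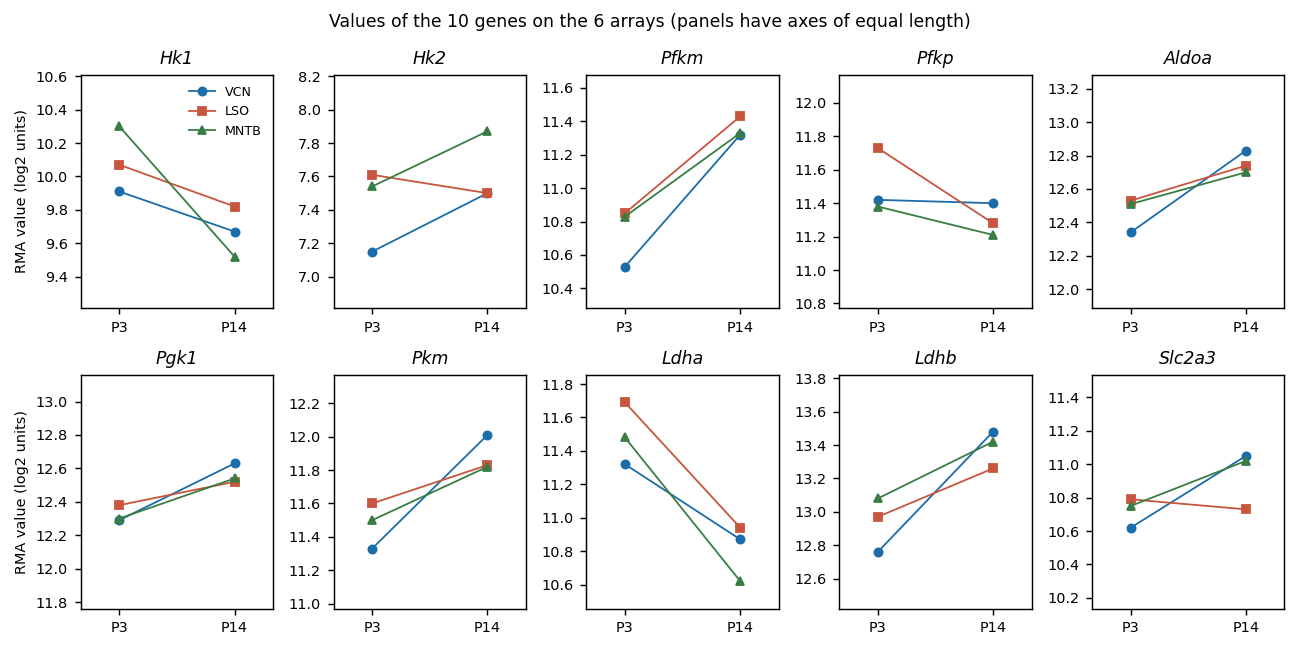
Values of the 10 genes in log2 units (vertical axes, each with its own range of equal length) at P3 and P14 for VCN (circles), LSO (squares) and MNTB (triangles), 1 array per point and lines joining the ages of a nucleus. Lines for Ldha and Hk1 fall in all 3 nuclei and lines for Ldhb, Pfkm, Aldoa, Pgk1 and Pkm rise in all 3.

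The change of Ldhb minus that of Ldha was 1.17 log2 units in VCN, 1.04 in LSO and 1.20 in MNTB, a mean of 1.13 ± 0.08 (SD, 3 nuclei). The shift toward Ldhb was thus of similar size in the 3 nuclei. In VCN the rise of Ldhb was the larger part of it, and in LSO and MNTB the fall of Ldha. That split between nuclei rests on 1 array a group and was not tested. For the difference of Ldhb minus Ldha, a two-sided exact sign-flip test over the 3 nuclei gave p = 0.25, the smallest value that 3 nuclei allow. Levels of the subunits are not compared, since different probe sets have different brightness. Tissue was bulk, so fewer cells of a type and less RNA per cell cannot be told apart in any of these values.

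Hexokinase commits glucose to the cell by phosphorylating it, and Hk1 is the main form of brain neurons, bound to mitochondria. Hk1 read 9.91 (VCN), 10.07 (LSO) and 10.30 (MNTB) at P3, and 9.67, 9.82 and 9.52 at P14. The groups did not overlap, with the highest P14 array, LSO, just below the lowest P3 array, VCN. The fitted change was -0.43 ± 0.13 (adjusted p = 0.0453), 1.34-fold higher at P3, with falls of 0.24, 0.26 and 0.78 in VCN, LSO and MNTB. The call was lost without the intensity trend (adjusted p = 0.0664), without the filter (0.0635) and without the P3 or P14 array of LSO (0.0793 and 0.0767), and without either array of MNTB the change was -0.25, with adjusted p of 0.219 without its P3 array and 0.210 without its P14 array. A second probe set of Hk1 gave -0.39 (adjusted p = 0.0926).

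Hk2, the hexokinase of muscle and of many growing cells, read 7.15 (VCN), 7.61 (LSO) and 7.54 (MNTB) at P3, and 7.50, 7.50 and 7.87 at P14. The ages overlapped. The change was 0.35 in VCN and 0.33 in MNTB but -0.10 in LSO, and the fitted value of 0.19 ± 0.14 had an interval from -0.15 to 0.54 (adjusted p = 0.315). The change of Hk1 minus that of Hk2 was -0.59, -0.15 and -1.12 log2 units in VCN, LSO and MNTB, with a mean of -0.62 ± 0.48 (SD). It had the same sign in 3 nuclei, and the exact test again gave its smallest possible p of 0.25.

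Phosphofructokinase is the step at which glycolysis is mainly regulated, and its tetramers mix the muscle, liver and platelet subunits. Pfkm, the muscle form and a major form in brain, read 10.53 (VCN), 10.85 (LSO) and 10.83 (MNTB) at P3, and 11.32, 11.43 and 11.33 at P14. All P14 arrays lay above all P3 arrays, with an SD of 0.18 at P3 and 0.06 at P14. The fitted rise was 0.62 ± 0.08 log2 units (95% interval 0.41 to 0.83, adjusted p = 0.00292), or 1.54-fold, and it passed with any 1 of the 6 arrays left out. Pfkm has 1 probe set here.

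Pfkp, the platelet form, gave different answers by probe set. Its representative set, 1416069_at, read 11.42 (VCN), 11.73 (LSO) and 11.38 (MNTB) at P3, and 11.40, 11.28 and 11.21 at P14. The ages overlapped, and the fitted change was -0.22 ± 0.10 (95% interval -0.45 to 0.02, adjusted p = 0.122). Set 1430634_a_at gave -0.18 (adjusted p = 0.194). Set 1437759_at read 11.64 (VCN), 11.44 (LSO) and 11.71 (MNTB) at P3, and 8.96, 9.09 and 8.67 at P14. All of its P14 arrays lay far below its P3 arrays. Its fitted change was -2.69 ± 0.14 (adjusted p = 0.000231), 6.46-fold higher at P3, the largest change of any of the 25 probe sets that name these genes alone. It was chosen for description after its values were seen. Which part of the Pfkp transcript each set reads was not analysed here, so the values stand as 3 readings of 1 gene that disagree.

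**Figure D2:**
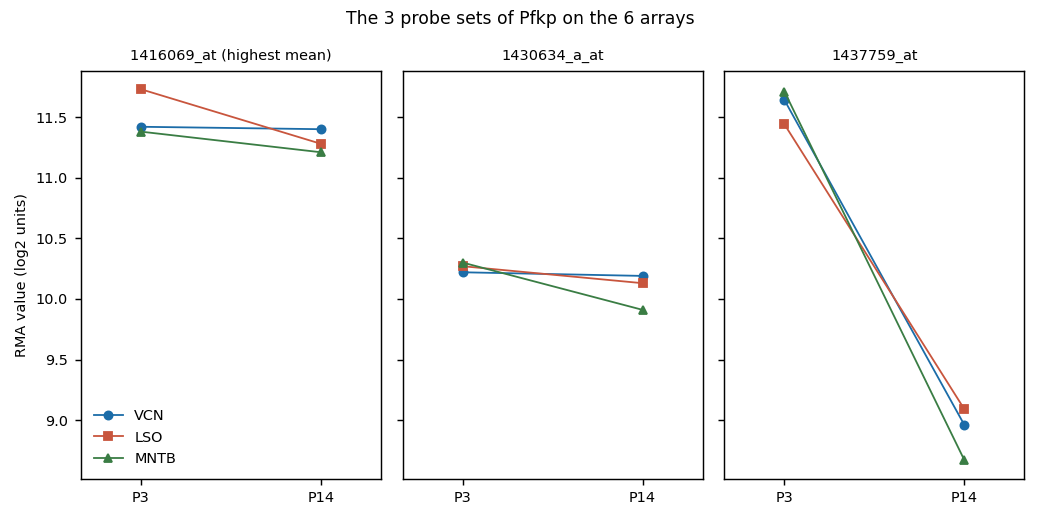
Values of the 3 probe sets of Pfkp in log2 units (vertical axis) at P3 and P14, 1 array per point, with VCN as circles, LSO as squares and MNTB as triangles. Set 1437759_at drops from between 11.44 and 11.71 to between 8.67 and 9.09, while the other sets differ by less than 0.5 between ages in every nucleus.

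With the representative sets, the change of Pfkm minus that of Pfkp was 0.82 log2 units (VCN), 1.02 (LSO) and 0.67 (MNTB). The mean was 0.84 ± 0.18 (SD, exact p = 0.25, the smallest possible). Taking the median of each gene's probe sets moved this mean to 1.96 and the change of Pfkp to -1.33 (adjusted p = 0.000328). By construction, the median of 3 readings on an array can fall on different probe sets at P3 and at P14, as it did in VCN (11.42 from the representative set, then 10.19 from 1430634_a_at), so this value compares different probe sets and adds nothing to the first. Pfkl, the liver form, had a fitted difference of -0.26 ± 0.09 (adjusted p = 0.0676), with every P14 array below every P3 array.

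Aldoa, the aldolase of muscle and of most cells, which splits fructose bisphosphate, read 12.34 (VCN), 12.53 (LSO) and 12.51 (MNTB) at P3, and 12.83, 12.74 and 12.70 at P14. The P14 arrays lay above the P3 arrays. The fitted rise was 0.29 ± 0.07 (adjusted p = 0.0235), or 1.23-fold. The call was lost without the intensity trend (adjusted p = 0.0845) and without the P3 or P14 array of MNTB (0.0676 and 0.0646) or the P3 array of LSO (0.0506). All 5 probe sets of Aldoa have names ending in _x_at, which the maker gives to sets with probes that can match other transcripts, and 4 of the 5 passed. The exception in the fit over probe sets, 1447734_x_at, had a difference of 0.06 (adjusted p = 0.818). Aldoc, the aldolase of astrocytes and Purkinje cells, had a difference of 0.19 (adjusted p = 0.0531).

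Pgk1, which makes the first ATP of the pathway, read 12.29 (VCN), 12.38 (LSO) and 12.30 (MNTB) at P3, and 12.63, 12.52 and 12.54 at P14. The P14 arrays lay above the P3 arrays. The fitted rise was 0.24 ± 0.06 (adjusted p = 0.0228), or 1.18-fold, the smallest among the genes that passed. The call was lost without the intensity trend (adjusted p = 0.104) and without either array of MNTB (0.138 and 0.134 without P3 and P14) or of VCN (0.0631 and 0.0621). All 3 probe sets of Pgk1 passed, with rises of 0.24 to 0.47.

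Pkm, which makes pyruvate, read 11.33 (VCN), 11.60 (LSO) and 11.50 (MNTB) at P3, and 12.01, 11.83 and 11.82 at P14. Again the P14 arrays lay above the P3 arrays, and VCN moved from the lowest of the P3 arrays to the highest of the P14 arrays. The fitted rise was 0.41 ± 0.10 (adjusted p = 0.0201), or 1.33-fold. The call was lost without the intensity trend (adjusted p = 0.0502) and without the P3 or P14 array of MNTB (0.0663 and 0.0649). The gene gives the M1 and M2 enzymes by alternative splicing, and 1 probe set gives no split between them. Over the 10 genes, 5 had all P14 arrays above all P3 arrays and 2 had all below. Over all tested genes this held for 30.3% and 23.4%.

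Slc2a3, which encodes the neuronal glucose transporter GLUT3, read 10.62 (VCN), 10.79 (LSO) and 10.75 (MNTB) at P3, and 11.05, 10.73 and 11.02 at P14. The LSO array of P14 lay within the P3 range, so the ages overlapped. The change was 0.43 in VCN and 0.27 in MNTB but -0.06 in LSO, and the fitted value was 0.22 ± 0.11 (95% interval -0.05 to 0.48, adjusted p = 0.164). None of its 4 probe sets passed, with changes of 0.19 to 0.44.

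**Figure D3:**
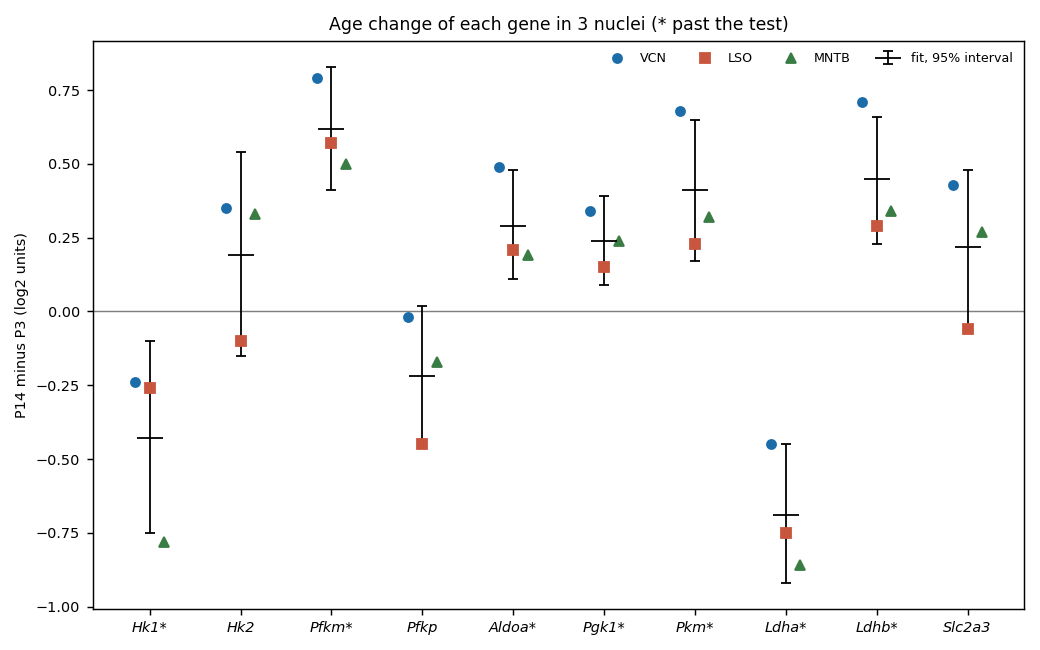
Age change (P14 minus P3, log2 units, vertical axis) of the 10 genes in VCN (circles), LSO (squares) and MNTB (triangles), with the fitted change and its 95% interval in black. The VCN point is the highest of the 3 for every gene, and the intervals of Hk2, Pfkp and Slc2a3 cross 0.

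Of the 10 genes 8 had age differences of the same sign in 3 nuclei, with Hk2 and Slc2a3 as the exceptions, and over all tested genes 67.9% did. The age change was highest, that is most positive, in VCN for all 10 genes, which was the case for 40.7% of tested genes. Accordingly the median change of the 10 was 0.39 (VCN), 0.04 (LSO) and 0.26 (MNTB), beside 0.05, 0.0 and 0.02 over all tested genes. Most lists of neighbouring pathways described below also had their highest median in VCN. In VCN, LSO and MNTB it was 0.56, 0.24 and 0.21 for the citric acid cycle. For pyruvate entry it was 0.53, 0.32 and 0.30. The exceptions were regulators of phosphofructokinase, highest in MNTB (0.97), and ketone body use, highest in LSO (0.12). The VCN array of P3 was the lowest of the P3 arrays for 9 of the 10, and for 43.4% of tested genes. Each of these differences between nuclei rests on 1 array a group and was not tested.

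The neuronal marker list, too, had its most positive age differences in VCN. The median change of its 9 genes was 0.39 (VCN), -0.15 (LSO) and -0.33 (MNTB), and its summed level went from 15.31 to 15.55 in VCN, from 15.58 to 15.48 in LSO and from 15.29 to 15.28 in MNTB. Choroid plexus markers stood apart on the VCN array of P14, with a summed level of 12.62 against 7.54 to 7.91 on the other 5. That sum is mostly Ttr, and the other 3 markers with a probe set read 4.98 to 6.26 there. The part of either list in the values of the 10 genes was not tested. With age, 2 of the 9 neuronal markers rose and 4 fell, and the summed level ran from 15.29 to 15.58 at P3 and from 15.28 to 15.55 at P14.

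Markers of several other cell types were mostly higher at P14, where 23.4% of all tested genes were higher and 17.7% lower. Of mature oligodendrocyte markers 8 of 8 rose, with a summed level of 13.31 to 14.30 at P3 and 15.65 to 15.79 at P14. Of astrocyte markers 5 of 9 rose and 2 fell (summed level 14.70 to 14.88, then 15.14 to 15.33). Of endothelial markers 6 of 7 rose (10.94 to 11.29, then 11.82 to 11.93), of microglial markers 4 of 5 (10.96 to 11.43, then 11.61 to 11.88), of oligodendrocyte precursor markers 4 of 6, with 1 lower (12.82 to 13.14, then 13.16 to 13.52), and of red blood cell markers 3 of 3 (9.70 to 9.72, then 10.82 to 11.04). Of 4 tested muscle markers 0 rose and 1 fell (8.12 to 8.69, then 7.81 to 7.95). The part of these lists in the age changes of the 10 genes was not tested.

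No gene of the 10 passed the test between nuclei. In the additive fit 0 of 10 passed for MNTB minus LSO, MNTB minus VCN or VCN minus LSO, and 0 of 10 had an unadjusted p under 0.05 in any of them. Few genes passed at all: 0.161% of those tested for MNTB minus LSO, 0.638% for MNTB minus VCN and 0.369% for VCN minus LSO. The lowest adjusted p among the 10 was 0.787, 0.593 and 0.645 in these contrasts, each of which rests on 2 ages. Their median difference was 0.09, 0.08 and 0.09 log2 units in size, beside 0.11, 0.12 and 0.11 over all tested genes.

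The intervals of the additive fit use the same moderated spread. They measure how evenly a difference between nuclei recurred over the ages, and not how it varied between animals or dissections. They do not bound a difference present at P3 or at P14 alone. Hk2 was higher in MNTB than in VCN by 0.38 log2 units at P3 and by 0.37 at P14, and the fitted difference of 0.38 ± 0.17 had an interval from -0.05 to 0.80. Ldha was lower in MNTB than in LSO at both ages, at -0.21 and -0.31, with a fitted difference of -0.26 ± 0.12 and an interval from -0.55 to 0.03. Pfkm gave -0.21 ± 0.10 for VCN minus LSO, with an interval from -0.47 to 0.04. For Pgk1 all 3 intervals lay between -0.22 and 0.19. The order of the nuclei often turned with age: 3 of the 10 genes kept the sign of MNTB minus VCN at both ages, 3 that of VCN minus LSO and 6 that of MNTB minus LSO.

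**Figure D4:**
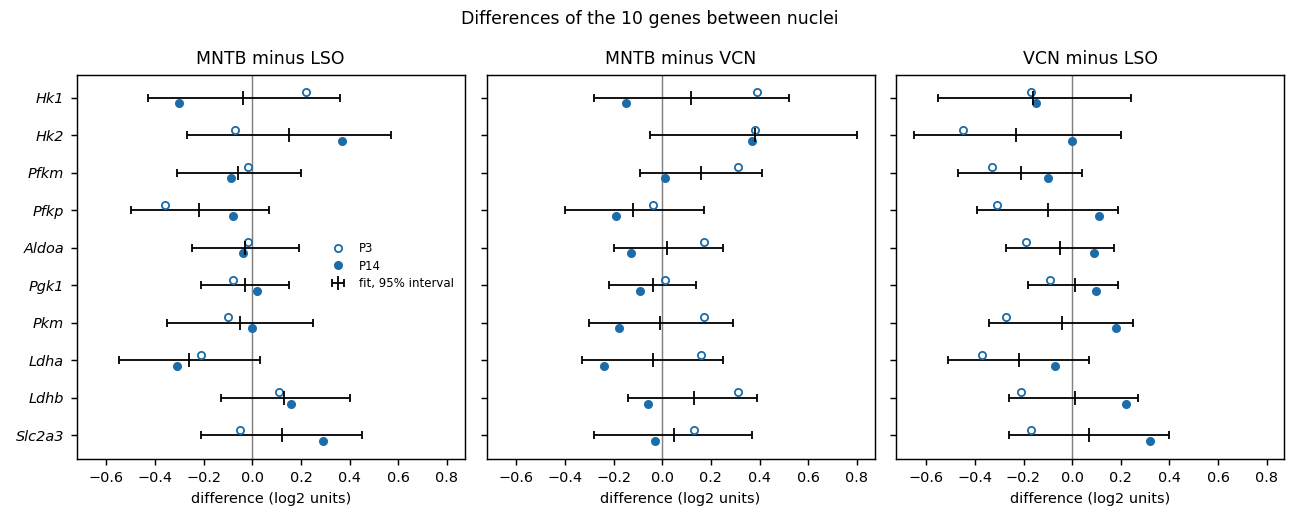
Differences of the 10 genes between nuclei (horizontal axes, log2 units) in 3 contrasts, with the fitted difference and 95% interval in black, the P3 arrays as open and the P14 arrays as filled circles. Every interval crosses 0, and the bound farthest from 0 is 0.80, for Hk2 in MNTB minus VCN.

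The rest of the pathway was read from lists chosen by function. Their counts stand beside shares of 23.4% higher and 17.7% lower over all tested genes. Of 12 other glycolytic enzymes and isozymes tested, 4 rose and 1 fell, with a median change of 0.11 beside 0.03 over all tested genes. The risers were Eno2, the neuronal enolase and also 1 of the neuronal markers, at 0.51 (adjusted p = 0.00868), Bpgm, which makes bisphosphoglycerate, at 0.34 (adjusted p = 0.00478), the triose phosphate isomerase gene Tpi1 at 0.29 (adjusted p = 0.0319) and the phosphoglycerate mutase gene Pgam1 at 0.17 (adjusted p = 0.0404). Pklr, the pyruvate kinase of liver and red cells, fell by 0.44 (adjusted p = 0.0434).

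Of 4 tested regulators of phosphofructokinase 3 rose, with a list median of 0.84. Pfkfb3, the enzyme that makes the activator fructose 2,6-bisphosphate in many tissues, read 8.16, 8.49 and 8.44 in VCN, LSO and MNTB at P3, and 9.00, 9.30 and 9.15 at P14. Its groups were apart, and it rose by 0.79 ± 0.10 (adjusted p = 0.00233). Pfkfb2 rose by 0.88 and Tigar, which removes that activator, by 1.04 (adjusted p = 0.0104 and 0.0110). Pfkfb4 had a difference of 0.02 (adjusted p = 0.915).

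Of 15 tested genes of sugar and lactate handling 5 rose and 2 fell, with a median of 0.23. Slc16a1, which encodes the monocarboxylate transporter MCT1 of endothelium and glia, had the largest rise past the test, from 10.25, 9.92 and 10.37 in VCN, LSO and MNTB at P3 to 11.57, 11.66 and 11.56 at P14. Its groups lay well apart, with a rise of 1.42 ± 0.12 (adjusted p = 0.000702). Emb and Bsg, which encode partner chaperones of monocarboxylate transporters, rose by 1.22 and 0.36 (adjusted p = 0.0209 and 0.0131), although for Emb the ages overlapped. Slc16a7, the neuronal transporter MCT2, had a difference of 0.09 and Slc16a3, the transporter MCT4 of astrocytes, of 0.20, and neither passed (adjusted p = 0.626 and 0.239).

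Among glucose transporters, Slc2a1, which encodes GLUT1 of the blood-brain barrier and glia, rose by 0.60 ± 0.09 (adjusted p = 0.00475) and the insulin-responsive Slc2a4 by 1.20 ± 0.16 (adjusted p = 0.00279). Of other genes in the same Slc2a family, Slc2a10 and Slc2a13 fell by 0.98 and 0.54 (adjusted p = 0.00865 and 0.0308). At P14 Slc2a10 read 4.53, 5.94 and 5.46 in VCN, LSO and MNTB, around the filter level of 5.57. The rises of Slc16a1 and Slc2a1, genes that endothelium expresses strongly, stood beside the rise of 6 of 7 endothelial markers given above, whose part in them was not tested.

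Pyruvate enters mitochondria through the carrier Mpc1 and the pyruvate dehydrogenase complex. Of 13 tested genes of this step 7 rose and 0 fell, with a median of 0.39. Mpc1 rose by 0.68 and the complex subunits Pdhx, Dlat, Pdhb and Dld by 0.68, 0.59, 0.46 and 0.39, while Pdha1 had a difference of 0.10 (adjusted p = 0.451). Pdk2 and Pdk3, kinases that inhibit the complex, rose most, by 1.44 ± 0.10 and 1.30 ± 0.12 (adjusted p = 0.000425 and 0.00089). The kinase genes Pdk1 and Pdk4 had differences of -0.24 and 0.23, and neither passed (adjusted p = 0.0956 and 0.186). Nor did the phosphatase genes Pdp1 and Pdp2, with differences of -0.31 and -0.03 (adjusted p = 0.0758 and 0.831). Genes of the carrier and of complex subunits thus rose together with the inhibiting kinases Pdk2 and Pdk3.

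Downstream, 7 of 15 tested genes of the citric acid cycle rose and 0 fell, with a median of 0.34. The largest rises were those of the oxoglutarate dehydrogenase gene Ogdh, at 0.76 (adjusted p = 0.00823), and the succinyl-CoA ligase gene Suclg1, at 0.69 (adjusted p = 0.00452). Of 7 tested genes of the shuttles that carry NADH equivalents into mitochondria 5 rose. Gpd1, the cytosolic glycerol phosphate dehydrogenase, went from 6.92, 6.92 and 7.56 in VCN, LSO and MNTB to 10.60, 10.75 and 10.75, a rise of 3.56 ± 0.15 (adjusted p = 0.000235). Got1 and Mdh1, the cytosolic transaminase and malate dehydrogenase of the malate-aspartate shuttle, rose by 0.87 and 0.30 (adjusted p = 0.00517 and 0.00506). Gpd1 is known to be strong in oligodendrocytes, whose 8 tested markers rose as given above, and their part in its rise was not tested.

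**Figure D5:**
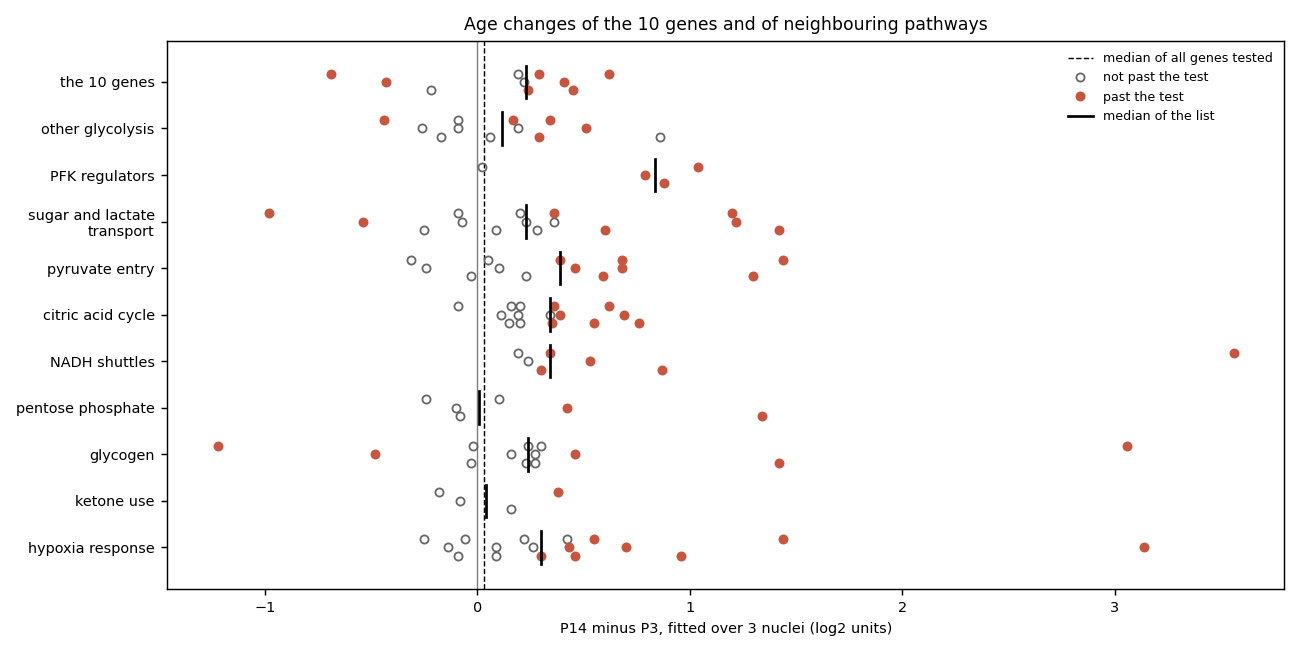
Fitted age changes (P14 minus P3, log2 units, horizontal axis) of the 10 genes and of 10 lists of neighbouring pathways, 1 point per tested gene, filled where past the test, with a bar at each list's median and a dashed line at the median of all tested genes (0.03). The lists of pyruvate entry, citric acid cycle, NADH shuttles and hypoxia response hold no filled point below 0, and Gpd1 is the farthest to the right at 3.56.

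Several genes of glycolysis are known targets of the hypoxia-inducible factor. Of 17 tested genes of oxygen sensing and of its targets outside glycolysis 8 rose and 0 fell, with a median of 0.30. Ndrg1 and Adm rose most, by 3.14 ± 0.17 and 1.44 ± 0.09 (adjusted p = 0.000347 and 0.000376), and the factor genes Hif1a and Epas1 rose by 0.30 and 0.70 (adjusted p = 0.0364 and 0.000949). Ndrg1 is also a gene of myelinating cells.

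Genes whose profile over the 6 arrays lay closest were sought for Ldha, Ldhb and Slc2a3 by the root mean square distance of centred values, as a description over 6 arrays. For Ldha, whose own profile had a root mean square of 0.37 log2 units, they were Acvr1b, Plppr2 and Ppm1g, at distances of 0.053, 0.062 and 0.064. For Ldhb, at 0.25, they were Scamp5, Fdx1 and Tex264, at 0.027, 0.041 and 0.042. For Slc2a3, at 0.16, they were Zup1, 2300009A05Rik and Med29, at 0.036, 0.041 and 0.043. None of these 9 genes is among the 10.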

How the data were processed

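RNA of 3 nuclei at 2 ages was measured on 6 arrays, 1 per combination, and samples were grouped by their titles. What the authors deposited is 1 log2 value for each probe set and array, made with RMA per the submitters' processing notes, which give no version and no genome build. Of 45101 probe sets, 64 are controls, 34945 name 1 gene in the platform annotation, 932 several and 9160 none here. RefSeq holds 34741 of the 34945, with 0 symbols changed. The probe set of highest mean stood for a gene, names ending in _x_at included, and a gene was tested where that mean reached 5.57 log2 units, percentile 40 over probe sets.

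The fit used limma 3.58.1 with R 4.3.3 (lmFit, eBayes with an intensity trend, two-sided, 2 residual and 4 prior degrees of freedom), with age and nucleus as additive terms, so that nucleus pairs the ages as a block; the pairing comes from the tissue labels, and whether the nuclei of an age share animals is not given. P-values were adjusted by Benjamini and Hochberg's method over all tested genes. Nothing says that scan or amplification batches exist, so none was tested. The steps were tested on simulated data. Precision is limited by having 6 arrays. A summed level is the log2 of a list's summed linear values. Promoter sequences are those of RefSeq on GRCm38.p6.

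The 10 genes, all lists, the naming rule and the alternatives were chosen with earlier results of these data known. Named are all 10 genes, from each pathway list the 2 largest rises and falls past the test, single genes needed to describe a step, and for 3 genes the 3 nearest profiles. A probe set naming Hk1 together with other genes was left out. Alternatives were a median over the probe sets of each gene, no _x_at sets, no filter, array centring, repeated quantile normalization, no block, no intensity trend, robust moderation, each array left out and, added after the data were seen, each other probe set of the 10 genes.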

Additional observations from a re-analysis of the deposited data

Results flagged for a closer look

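Hk2 and Slc2a3 had age differences of opposite sign between nuclei. Hk2, a hexokinase gene, differed by 0.35 log2 units in VCN, -0.10 in LSO and 0.33 in MNTB. Slc2a3, the gene of the neuronal glucose transporter, differed by 0.43 in VCN, -0.06 in LSO and 0.27 in MNTB. In both genes LSO alone was below 0, on 1 array at each age. The difference between nuclei was not tested, since no nucleus and age was repeated, and neither gene passed the test for age.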

How the results depend on the processing

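Ldha, Ldhb and Pfkm kept their direction and passed for age under every alternative run, including each of the 6 arrays left out. Ldha and Pfkm have 1 probe set each here, so alternatives in the choice of probe sets could not change their values. Of the other age values of the 10 genes 20 lost their call, 4 gained one and 0 reversed. Without the intensity trend 2 of the 10 genes were higher and 1 lower, with Hk1, Aldoa, Pgk1 and Pkm lost. In that fit 5006 of the 13015 tested genes passed. Without the filter 1 of the 10 was lower, with Hk1 lost. Without either array of MNTB 2 were higher, Pfkm and Ldhb, and 1 lower, Ldha. With 1 array left out the genes higher ranged from 2 to 5 and those lower from 1 to 3, the third being Pfkp without either VCN array (-0.31, adjusted p = 0.0468 and 0.0450). Hk1 lost its call without an array of LSO or MNTB, Pgk1 without one of VCN or MNTB, Aldoa without one of MNTB or the P3 array of LSO, and Pkm without one of MNTB. Such fits have 1 residual degree of freedom. Over all tested genes, leaving out 1 array gave 3254 to 4785 age calls, 1932 to 2616 higher and 1318 to 2174 lower, lowest without MNTB arrays. Nucleus calls then ranged from 4 to 121 for MNTB minus LSO, 17 to 238 for MNTB minus VCN and 6 to 178 for VCN minus LSO, highest without a VCN array. With no replicate block 1, 0 and 1 genes passed in these contrasts, and the block changed no call of the 10 genes for age. In every fit 0 of the 10 passed between nuclei, and 38 of 420 such values changed sign. With the median of probe sets the isozyme difference of Pfkm minus Pfkp was 1.96.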

Other observations

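Of 13 tested genes of glycogen synthesis and breakdown 3 rose, 2 fell and 8 did not pass for age. These counts lie near the shares over all tested genes, 23.4% higher and 17.7% lower. The phosphorylase genes were among those that passed, in both directions. The muscle phosphorylase gene Pygm, known in astrocytes, read 5.78, 6.77 and 7.16 in VCN, LSO and MNTB at P3 and 9.98, 9.75 and 9.16 at P14, a rise of 3.06 ± 0.38 (adjusted p = 0.00226). The brain phosphorylase gene Pygb fell by 0.48 and the liver form Pygl by 1.22 (adjusted p = 0.00563 and 0.00149), with every P14 array below every P3 array. Phkg1, a catalytic subunit of the kinase that activates phosphorylase, rose by 1.42 ± 0.16 (adjusted p = 0.00158), and the branching enzyme gene Gbe1 by 0.46 (adjusted p = 0.0252).

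In the pentose phosphate pathway 2 of 6 tested genes rose and 0 fell, with a median of 0.01. Taldo1, the transaldolase gene, rose by 1.34 ± 0.09 (adjusted p = 0.000448) and Rpia by 0.42 (adjusted p = 0.0384). Of 4 tested genes of ketone body use 1 rose, Bdh1, by 0.38 (adjusted p = 0.0137). Counts of both lists stand beside the same shares over all tested genes, 23.4% higher and 17.7% lower.

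Pgam2, the muscle phosphoglycerate mutase gene, read 8.91 on the VCN array of P14 and 6.11 to 6.64 on the other 5, and did not pass for age (adjusted p = 0.271). On the same array Ttr, the transthyretin gene of choroid plexus, read 12.58, against 6.61 to 6.93 elsewhere. The summed level of muscle markers was 7.81 there and 7.93 to 8.69 on the other arrays. Egln3, an oxygen sensor gene, differed between ages by 1.91 in VCN, 0.04 in LSO and -1.30 in MNTB and did not pass (adjusted p = 0.774).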
